A study of Homo sapiens with 6 samples.

Results

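The granins and the RAB3 GTPases of regulated secretion were read on microarrays of a HEK293 line made to overexpress BAHD1 and of its control line. The genes are SCG2, SCG3, SCG5, CHGA, CHGB, RAB3A, RAB3B, RAB3C, RAB3D and PCSK1. Each was read from probe sets whose annotation names that gene alone, and 9 of the 10 had 1 such probe set, out of 19310 probe sets that name 1 gene on the array. PCSK1 was not analysed here. The set was chosen by a rule written with the difference between the 2 lines on these same 6 arrays in view, so the values and fold changes of its members are a description and carry no test.

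The arrays were made to find genes whose expression differs when the chromatin repressor BAHD1 is overexpressed, and the paper set them beside changes in DNA methylation. Both lines descend from HEK293, an established line from human embryonic kidney, and were grown under hygromycin B as stable pools of transfectants, 1 pool per line. HEK-BAHD1 carries 1 copy of the BAHD1 cDNA driven by the cytomegalovirus promoter, at a fixed integration site. The control, HEK293-CT, has an out-of-frame β-galactosidase sequence at that site according to the sample labels, and an empty vector according to the study's supplement. Total RNA of 3 cultures per line was hybridised, 1 array per culture. For DNA and RNA, the supplement gives HEK-BAHD1 replicate 2 a later passage than the control and HEK-BAHD1 replicate 1. The passage of replicate 3 is not stated there, nor whether these replicate numbers are those of the arrays. Because the cultures of a line come from 1 pool, p-values for other genes below measure the spread between cultures and not between independent pools.

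Endocrine and nerve cells store peptide hormones and neuropeptides in dense-core granules, which fuse with the plasma membrane when calcium rises. Granins (chromogranins and secretogranins) are acidic, calcium-binding proteins that aggregate in the trans-Golgi network, help to form these granules and are cut into peptides by the prohormone convertases, of which PCSK1 is one. RAB3A to RAB3D are small GTPases on the cytoplasmic face of secretory vesicles, where they bind effectors such as RIM proteins and rabphilin and take part in docking and priming. HEK293 is not a classical endocrine cell, and these genes are best known from neurons, adrenal chromaffin cells and pancreatic islets.

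Signals are log2 values summarised per probe set with RMA, a method that subtracts background, normalises between arrays and combines the probes of a gene. A fold change is the mean of the arrays labelled HEK-BAHD1 minus the mean of the arrays labelled HEK293-CT, on that log2 scale, given with its standard error (SE) and n = 3 arrays per label. A call means an adjusted p under 0.05 from limma over all 21062 probe sets that name a gene, together with group medians more than 0.2 apart. For members of the set, a call is a description, and so is its return in alternative analyses of the same arrays. Signals of different probe sets depend on their probes and are not ranked against each other. As a mark of dim signal, the 95th percentile of 378 olfactory receptor probe sets was used, which lay at 4.63.

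BAHD1 itself was read on every array because it checks the labels. On the arrays labelled HEK293-CT its log2 signal was 10.06, 9.81 and 9.93, and on those labelled HEK-BAHD1 it was 6.75, 7.00 and 6.76. The gene said to be overexpressed was thus lower on every array labelled HEK-BAHD1, by 3.10 on the log2 scale in the wrong direction for the labels (log2 fold change -3.10, SE 0.093, limma adjusted p = 3.12e-05). The paper's RT-qPCR and immunoblot run the other way, with BAHD1 higher in HEK-BAHD1 cells than in the control. The X-linked genes IRS4, SYP and PCSK1N, listed in the paper's supplement as lower in HEK-BAHD1 cells, all had fold changes above 0 on these arrays, also opposite to that listing. IRS4 and SYP were called higher, whereas PCSK1N was not called and its labels overlapped. The many other genes of that listing are not given here. Every direction below is that of the labels as deposited, and each would turn if the labels were exchanged. Over all tested probe sets, 1345 were called lower (6.39%) and 1430 higher (6.79%) under the HEK-BAHD1 label, with a median fold change of 0.0033. Centring the arrays on their medians moved the share of higher calls from 51.5% to 37.0% of all calls, with 1912 lower and 1125 higher, and ended the call of RAB3D alone among the members.

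**Figure D1:**
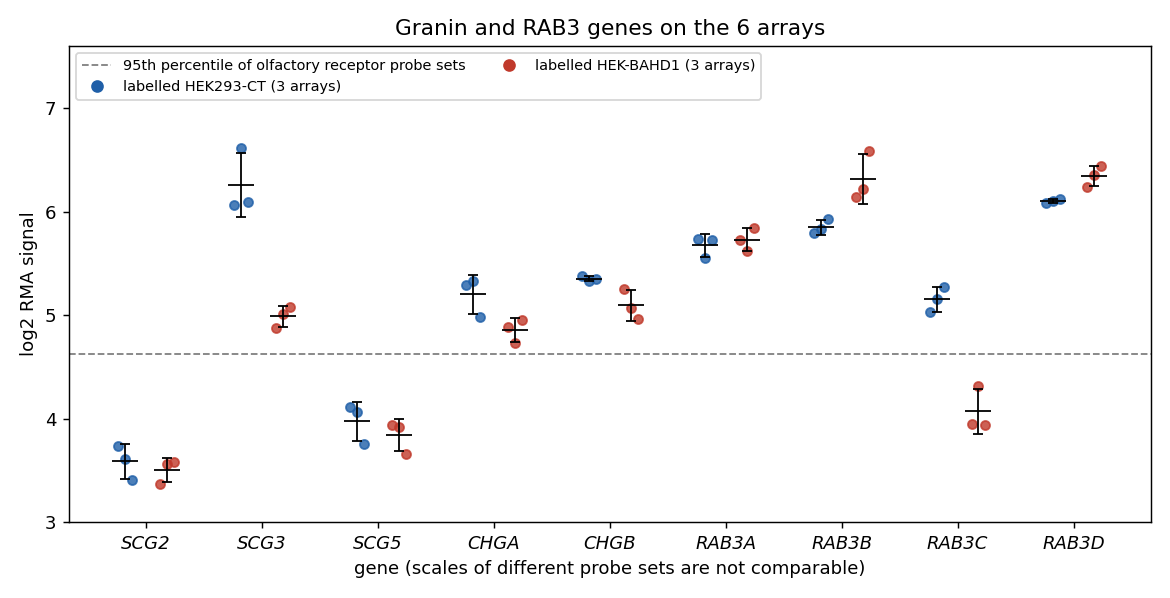
Log2 RMA signal (vertical axis) of the 9 measured granin and RAB3 genes (horizontal axis) on 3 arrays labelled HEK293-CT (blue) and 3 labelled HEK-BAHD1 (red). Points are arrays, horizontal marks and bars are the mean and SD of 3 arrays, and the dashed line at 4.63 marks dim signal. SCG3 and RAB3C show the widest gaps between labels, while SCG2 and SCG5 lie under the dashed line on all 6 arrays.

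Among the granins, SCG3 differed most. Secretogranin III binds chromogranin A and cholesterol-rich membranes and so tethers granule cargo to the granule membrane. Replicates 1, 2 and 3 labelled HEK293-CT read 6.06, 6.61 and 6.09, and those labelled HEK-BAHD1 read 4.88, 5.01 and 5.08. The labels did not overlap: the lowest control-labelled array stood 0.98 above the highest array labelled HEK-BAHD1, and all 6 values were above the dim level. HEK293-CT replicate 2 was the highest and gave that label an SD of 0.31, against 0.10 for the other label. The fold change was -1.26 (SE 0.14), a 2.40-fold lower signal. In bulk RNA, fewer cells with the transcript and less of it per cell cannot be told apart, here and for the genes below. SCG3 met the call rule under all 16 alternative analyses, and without the high control array it was -1.09.

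Sequence around the SCG3 start is shown because it holds both parts of the RE1 element, the site bound by REST, a repressor of neuronal genes that is known to act on many granin genes. Sequences are from RefSeq (GRCh38.p14, plus strand), with the start of the transcript as base 1 and the last base before it as -1. The 100 bases before the start (chr15:51681403-51681502) hold none of the 4 motifs searched. The second stretch (chr15:51681511-51681534), bases 9 to 32 after the start, has the parts TTCAGCACC and GGACAGC in capitals, with 8 bases between them. Only the letters of the parts were matched. Their spacing was not compared with that of known REST sites, and binding was not tested.
SCG3 upstream: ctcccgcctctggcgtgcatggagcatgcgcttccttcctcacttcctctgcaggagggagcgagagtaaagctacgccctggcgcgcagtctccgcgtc
SCG3 RE1 parts: TTCAGCACCcacagggcGGACAGC

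CHGA and CHGB were lower by less. Chromogranin A, a clinical marker of neuroendocrine cells, gave 5.29, 5.33 and 4.98 on the arrays labelled HEK293-CT and 4.89, 4.73 and 4.95 on those labelled HEK-BAHD1. Every array labelled HEK-BAHD1 lay under every control-labelled array, but HEK293-CT replicate 3 missed overlapping by only 0.03. The fold change was -0.34 (SE 0.10) and did not meet the call rule, which it met without HEK293-CT replicate 3, at -0.45. Chromogranin B, the related granule matrix protein, gave 5.38, 5.33 and 5.35 against 5.25, 5.07 and 4.96. Its control-labelled arrays were tightly grouped and the arrays labelled HEK-BAHD1 were spread out beneath them. The fold change of CHGB was -0.26 (SE 0.079), also short of the call rule, and it met the rule without HEK-BAHD1 replicate 1, at -0.34. CHGA and CHGB also met it where the dimmest 30% of probe sets were left out before adjustment.

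The CHGA promoter is shown because its cAMP response element, through which cAMP signalling raises transcription in endocrine cells, is in the window searched. The RefSeq record of CHGA reaches further upstream than the start used here, so only 30 bases are given, -65 to -36 (chr14:92923085-92923114, GRCh38.p14, plus strand), with the element TGACGTCA at -54 to -47 in capitals.
CHGA: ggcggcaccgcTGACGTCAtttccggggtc

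SCG2 and SCG5 were dim on all 6 arrays. SCG2 encodes secretogranin II, the precursor of secretoneurin, and gave 3.74, 3.61 and 3.41 against 3.37, 3.56 and 3.58. SCG5 encodes 7B2, the chaperone of the convertase PCSK2, and gave 4.11, 4.06 and 3.76 against 3.94, 3.92 and 3.66. The labels overlapped for both. Their fold changes were -0.08 (SE 0.097) for SCG2 and -0.14 (SE 0.11) for SCG5, and neither met the call rule in any of 15 alternative analyses. At signals this near to those of olfactory receptor probe sets, a difference in these genes was not detectable on these arrays, which does not show that there is none.

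The RAB3 genes went in different directions. RAB3C gave 5.03, 5.16 and 5.27 on the arrays labelled HEK293-CT and 3.95, 4.32 and 3.94 on those labelled HEK-BAHD1. All 3 control-labelled arrays were above the dim level and all 3 arrays labelled HEK-BAHD1 were under it, with no overlap. The fitted difference of the measured values was -1.08 (SE 0.11). As the level under the HEK-BAHD1 label is known only as dim, the size is a bound: with those arrays set at the dim level, the signal was at least 1.44-fold lower. RAB3C met the call rule in all 15 alternative analyses that kept it, with fold changes between -1.21 and -1.02, and it is left out where the dimmest 30% of probe sets are removed.

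The RAB3C window holds 1 part of the RE1 element, GGACAGC, without the other. The RefSeq record of this gene too reaches further upstream than the start used, and the 30 bases before that start (chr5:58583045-58583074, GRCh38.p14, plus strand) are given with the match, at -10 to -4, in capitals, for comparison with the SCG3 stretch.
RAB3C: gcgtgtgcggcgccaggagaGGACAGCtcc

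RAB3B, the isoform known from pituitary and epithelial cells, ran the other way. It gave 5.79, 5.83 and 5.93 on the arrays labelled HEK293-CT and 6.14, 6.22 and 6.59 on those labelled HEK-BAHD1. Its labels did not overlap, and HEK-BAHD1 replicate 3 was the highest array. The fold change was 0.47 (SE 0.12), a 1.38-fold higher signal, and met the call rule. It was 0.33 without HEK-BAHD1 replicate 3, where it still met the rule. It no longer met it without HEK-BAHD1 replicate 2 (0.52), without HEK293-CT replicate 1 (0.44), replicate 2 (0.46) or replicate 3 (0.51), or with unnamed probe sets tested too, though it stayed above 0 in all 16 alternatives.

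RAB3D, the isoform of exocrine granules and mast cells, gave 6.08, 6.10 and 6.12 against 6.24, 6.35 and 6.44. The labels were apart by 0.12, and the control-labelled arrays differed from each other by no more than 0.04. The fold change was 0.24 (SE 0.064), just inside the call rule, which 11 of 16 alternatives ended. Among them were centring on medians, where it was 0.21, and leaving out HEK-BAHD1 replicate 2 (0.24) or replicate 3 (0.20), or HEK293-CT replicate 1 (0.23), replicate 2 (0.24) or replicate 3 (0.25). RAB3D and CHGB lie on either side of the call rule with fold changes of nearly the same size, 0.24 and -0.26.

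RAB3A, the main RAB3 of synaptic vesicles, gave 5.74, 5.55 and 5.73 on the arrays labelled HEK293-CT and 5.73, 5.62 and 5.84 on those labelled HEK-BAHD1. The arrays of both labels were interleaved. Its fold change was 0.06 (SE 0.080), and it was -0.01 without HEK293-CT replicate 2.

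**Figure D2:**
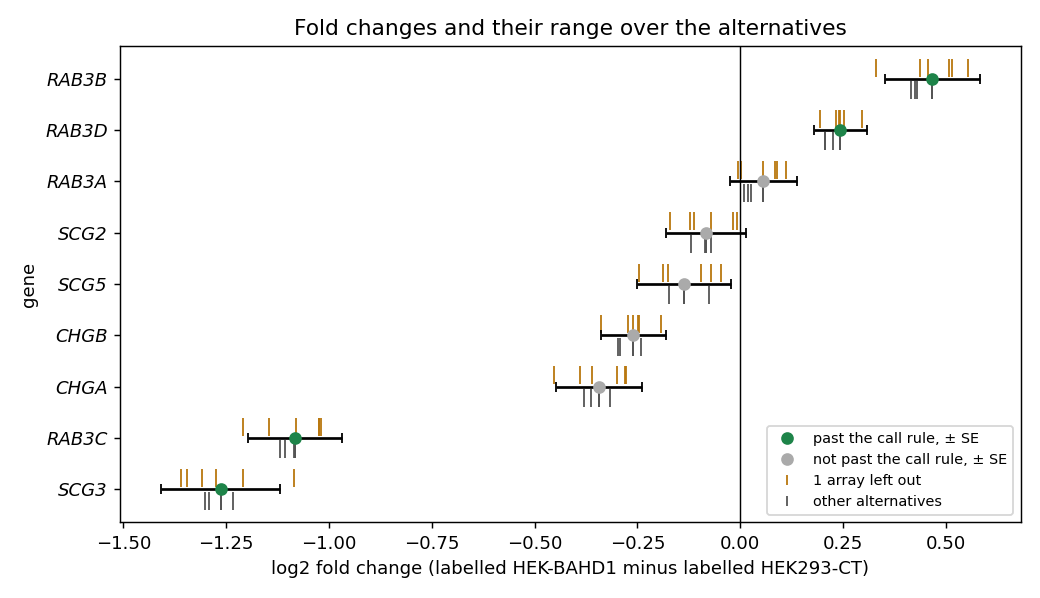
Log2 fold change (horizontal axis, arrays labelled HEK-BAHD1 minus arrays labelled HEK293-CT) of the 9 measured genes (vertical axis), with bars of 1 SE. Ticks above each point leave out 1 array, and ticks below it are the other alternatives. The fitted values of SCG3 (-1.36 to -1.09) and RAB3C (-1.21 to -1.02) stay below -1 throughout, and the ticks of RAB3A reach both sides of 0. RAB3C is dim on the arrays labelled HEK-BAHD1, so its size is known only as a bound (at least 1.44-fold lower).

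Of the 9 genes, 2 were called lower (SCG3 and RAB3C), 2 higher (RAB3B and RAB3D) and 5 were not called, beside 6.39% lower and 6.79% higher over all probe sets. Groups did not overlap for 4 lower genes (SCG3, RAB3C, CHGA and CHGB) and 2 higher ones, beside 16.9% lower and 16.7% higher over all probe sets. As the genes were chosen with this contrast known, nothing is read from those counts. The median fold change of the 9 was -0.14, and their range was -1.26 to 0.47. Of the granins, SCG3 (-1.26), CHGA (-0.34) and CHGB (-0.26) were lower, and only SCG3 was called. SCG2 and SCG5 were dim throughout with overlapping labels, so the signs of their fold changes are not read. The RAB3 family held the other called gene that was lower and both that were higher. With SCG2 and SCG5 dim, 7 genes had a signal above the dim level on some array.

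The other genes of the pathway were followed in 8 lists, with 153 of 165 genes measured. Fold changes ran from -0.75 to 0.50. In all, 14 genes were called lower, 12 higher and 127 were not called on the arrays labelled HEK-BAHD1. Over all probe sets 6.39% were called lower and 6.79% higher, to be set beside the counts of calls here and below. Counts at p under 0.05 before adjustment, given for some lists, follow a looser rule. Their share over all probe sets is not given here, so nothing is read from them. The counts of the lists shrink with fewer arrays. With any 1 array left out, no granin relative was called higher and 2 to 3 genes of the fusion machinery were called lower, in place of 2 and 5. The lists were also drawn up with earlier results of these arrays known, and their counts were not tested against the shares over all probe sets.

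Granin relatives and processing enzymes had 2 of 11 measured genes called higher and none lower by limma (before adjustment, 4 were higher and 0 lower at p under 0.05), with a median of 0.02. PCSK6, a proprotein convertase, was higher by 0.26 (adjusted p = 0.0332), and PAM, which amidates peptide hormones, by 0.24 (adjusted p = 0.0284). The granin-like precursor VGF gave a fold change of -0.15 (adjusted p = 0.524), and CPE, the carboxypeptidase that trims prohormones after the convertases, gave -0.10 (adjusted p = 0.311). PCSK1N, which encodes the PCSK1 inhibitor proSAAS, gave 0.27 (adjusted p = 0.124). The study's own list of X-linked genes lower in HEK-BAHD1 cells, drawn from its transcriptome data, holds PCSK1N, opposite to the sign found here. PCSK2 was not analysed here.

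Regulators and effectors of RAB3 had 3 of 19 genes called lower and 1 higher, with a median of 0.02. RAB3GAP1, the catalytic subunit of the complex that switches RAB3 off, read 10.02, 9.96 and 9.95 on the arrays labelled HEK293-CT and 9.46, 9.52 and 9.36 on the others, without overlap. It was lower by 0.53 in size (log2 fold change -0.53, SE 0.061, adjusted p = 0.00265). MADD, an exchange factor that switches RAB3 on, was also lower (-0.26, adjusted p = 0.0215). RIMS2, a RIM scaffold that binds RAB3, was lower (-0.45, adjusted p = 0.0437), whereas RIMS4, a short RIM that lacks the RAB-binding part, was higher (0.45, adjusted p = 0.00328). The called genes of this list thus include an activator and an inactivator of RAB3, a scaffold that binds it and a RIM without the RAB-binding part.

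Among 14 other RAB genes of secretory traffic, 2 were lower and 1 higher, with a median of 0.0067. RAB2B, a Golgi RAB, was lower (-0.47, adjusted p = 0.00467), as was RAB8B of post-Golgi transport (-0.27, adjusted p = 0.046). RAB26, a RAB of secretory granules, was higher (0.38, adjusted p = 0.0304). RAB27A, which acts beside RAB3 on dense-core granules, had a fold change of 0.01 (adjusted p = 0.92).

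The fusion machinery had 5 of 37 genes called lower and 0 higher by limma, with a median of -0.04. Before adjustment, 12 were lower and 4 higher at p under 0.05, counts that cannot be set beside the shares of calls. SNAP25, the plasma-membrane SNARE of neuronal and endocrine exocytosis, gave 7.07, 7.08 and 7.15 against 6.41, 6.56 and 6.49. Its labels were clearly apart, with a fold change of -0.61 (SE 0.060, adjusted p = 0.00151). The others that were lower were SYT11 (-0.47, adjusted p = 0.0117), a synaptotagmin, the vesicle SNARE VAMP1 (-0.43, adjusted p = 0.0248), the syntaxin STX3 (-0.36, adjusted p = 0.0285) and VAMP7 (-0.25, adjusted p = 0.0208). VAMP2, the main partner of SNAP25, gave -0.18 (adjusted p = 0.169). The probe sets of DOC2B, a calcium sensor, disagreed: the brighter one differed by -0.07 and was not called, and the other was called higher by 0.61 (adjusted p = 0.0205) while dim on all 6 arrays.

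Vesicle membrane proteins had 1 of 16 genes called lower and 4 higher, with a median of 0.10. SYNGR1 and SYNGR2, the synaptogyrins, were higher (0.48, adjusted p = 0.013, and 0.24, adjusted p = 0.0302). SV2A, a glycoprotein of synaptic and endocrine vesicles, was higher (0.38, adjusted p = 0.0228), as was SYP, synaptophysin (0.28, adjusted p = 0.0433), which the same X-linked list gives as lower in HEK-BAHD1 cells. SYN1, synapsin I, was lower (-0.29, adjusted p = 0.0416).

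Of 26 peptide hormones and neuropeptides, the cargo of these vesicles, 3 were lower and 1 higher, 9 were dim on all arrays and the median was 0.01. TAC1, the precursor of substance P, gave 6.21, 6.41 and 6.09 on the arrays labelled HEK293-CT and 5.52, 5.46 and 5.48 on the others, again without overlap. Its fold change was -0.75 (SE 0.084, adjusted p = 0.00242). ADM, the adrenomedullin precursor, was lower (-0.38, adjusted p = 0.00392). EDN1, the endothelin precursor, was lower (-0.41, adjusted p = 0.0225) with 1 of 6 arrays above the dim level. NPY, neuropeptide Y, was higher (0.29, adjusted p = 0.0387).

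**Figure D3:**
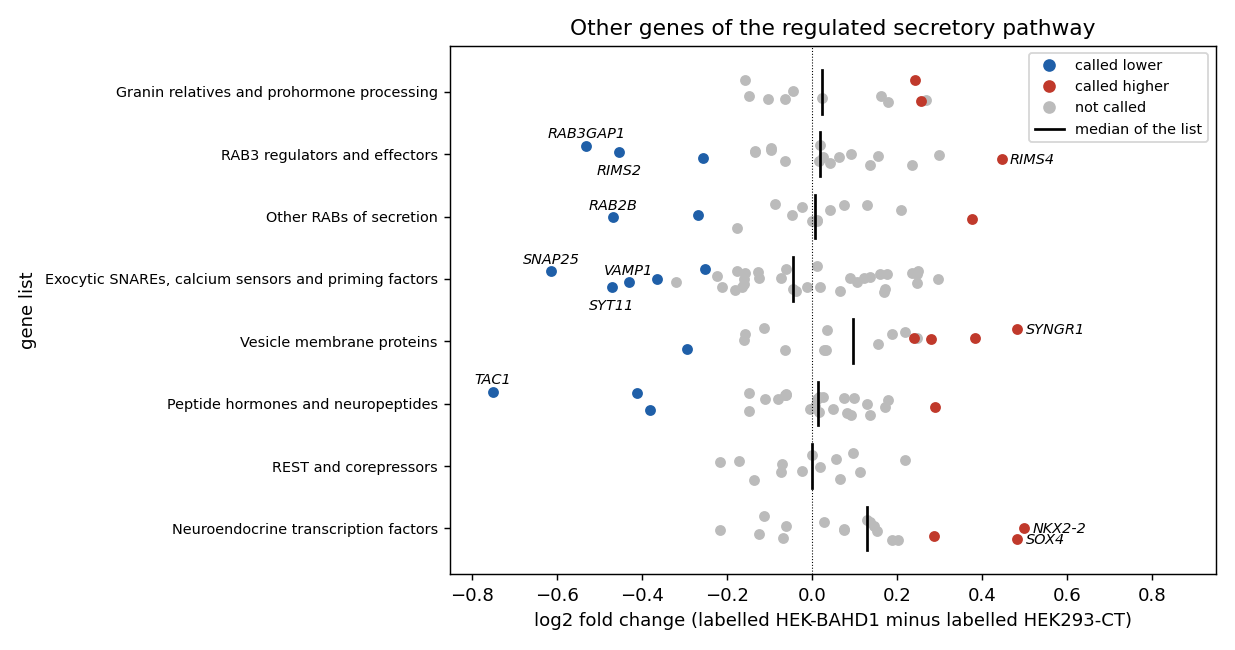
Log2 fold change (horizontal axis, arrays labelled HEK-BAHD1 minus arrays labelled HEK293-CT) of the genes of 8 related lists (vertical axis). Points are genes, blue and red points are called lower and higher, and black lines are list medians. Called genes with a size above 0.42 are named. All list medians lie between -0.04 and 0.13, and TAC1 (-0.75) and SNAP25 (-0.61) are farthest from 0.

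REST and its corepressors were read because many granin genes carry RE1 elements. None of the 13 genes was called by limma, with 1 lower and 0 higher at p under 0.05 before adjustment, and the list median was 0. REST gave 8.74, 8.75 and 8.85 on the arrays labelled HEK293-CT and 8.54, 8.57 and 8.58 on the others. The labels did not overlap, and the fold change was -0.22 (SE 0.055, adjusted p = 0.0408), but the medians differed by -0.18, under the threshold of 0.2, so the gene counted as called only where the adjusted p was used alone or the arrays were centred. Of 17 neuroendocrine transcription factors 3 were higher and none lower by limma, with 6 higher and 0 lower at p under 0.05 before adjustment and a median of 0.13. They were NKX2-2 (0.50, adjusted p = 0.0403), SOX4 (0.48, adjusted p = 0.00401) and NEUROG1 (0.29, adjusted p = 0.015), which are known from islet, neural and sensory development.

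Promoter sequence was compared over 35116 RefSeq windows of 27305 genes, each from 250 bases before to 50 bases after a start. Of the set, SCG3, SCG5, CHGA, RAB3A, RAB3B, RAB3C, RAB3D and PCSK1 have a window there, and SCG2 and CHGB do not. On both strands, TTCAGCACC was found in 0.376% of windows and GGACAGC in 6.03%. Among the measured genes of the set that have a window, TTCAGCACC was in SCG3 alone and GGACAGC in SCG3 and RAB3C. Both parts on 1 strand, in any order and at any distance from each other, were found in 20 windows (0.057%). Of the genes with such a window 14 were measured, of which SCG3 and CELSR3 (-0.33, adjusted p = 0.0286) were called lower and the others were not called. The priming factor UNC13A, which also holds both, gave -0.16 (adjusted p = 0.396). TGACGTCA was in 1.85% of windows, including that of CHGA. TATAAA, in 11.5% of windows, was in none of the measured genes of the set that have a window. Over all measured genes with each motif, 10.2% were called lower and 6.56% higher for TGACGTCA (442 genes), 6.59% and 9.48% for GGACAGC (1245 genes), 8.96% and 2.99% for TTCAGCACC (67 genes), and 6.76% and 5.93% for TATAAA (1686 genes). Over all probe sets the shares were 6.39% and 6.79%, and the differences from them were not tested. Those shares are not limited to 1 probe set per gene or to genes with a window, as the motif shares are. A match gives letters only and says nothing about binding in these cells.

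The neighbours of the 4 called genes were read as well. Of 24 neighbours, the 3 nearest measured genes on each side of each gene, 2 were called lower and 0 higher. Both lie on the same side of RAB3C on chromosome 5, and neither is the measured gene nearest to it. Distances in bases were not used. PLK2, a stress-responsive kinase gene, was lower by 0.74 in size (log2 fold change -0.74, adjusted p = 0.0021), and ACTBL2, an actin-like gene, gave -1.60 (adjusted p = 0.000104). PDE4D and DEPDC1B on the other side were not called. GAPT, between PLK2 and RAB3C, and PART1 were dim on all 6 arrays, so a lower signal could not have been seen there. SCG3 on chromosome 15, RAB3B on chromosome 1 and RAB3D on chromosome 19 had no called neighbour, although TMOD2 near SCG3 had a fold change of 0.23 (adjusted p = 0.0467) with medians too close for a call. CYP19A1 and GLDN beside SCG3 and TSPAN16 and TSPAN16-AS1 beside RAB3D were dim on all arrays, which leaves 18 of the 24 neighbours with signal above the dim level on some array.

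**Figure D4:**
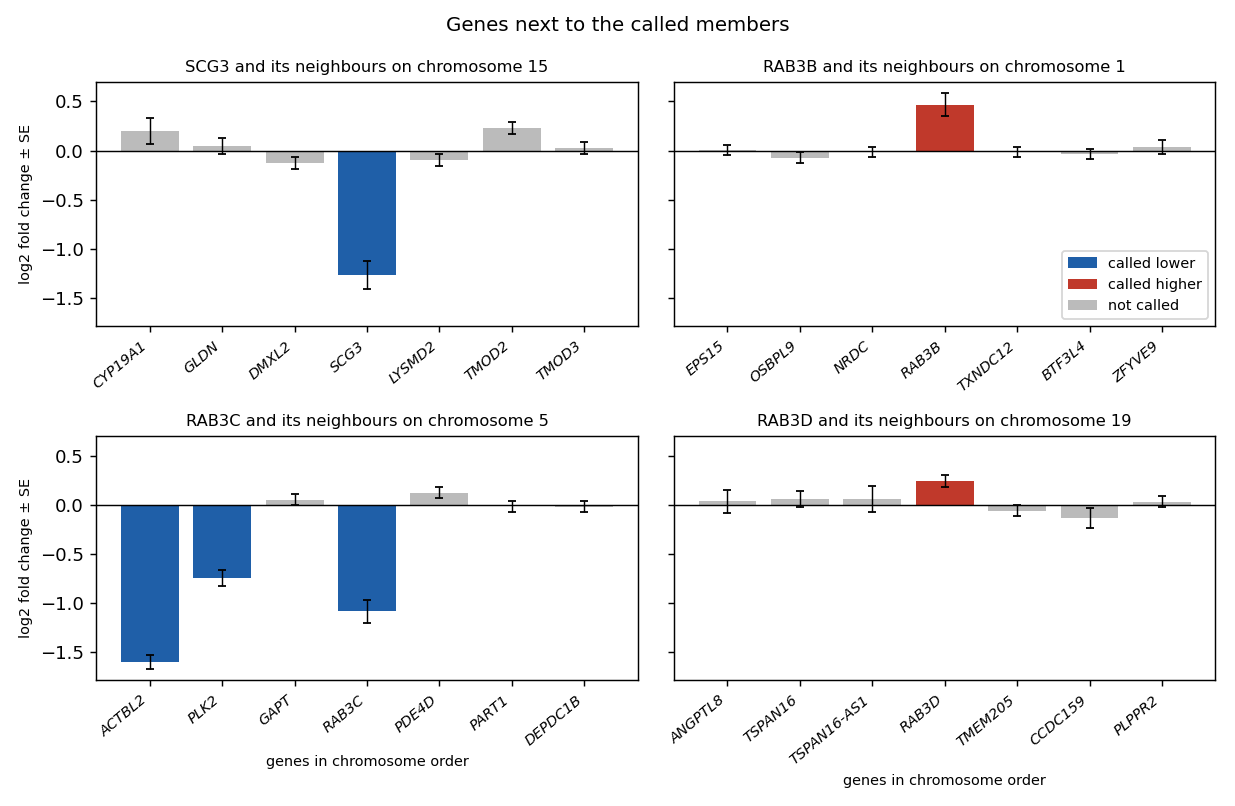
Log2 fold change (vertical axis, arrays labelled HEK-BAHD1 minus arrays labelled HEK293-CT, bars of 1 SE) of SCG3, RAB3B, RAB3C and RAB3D and the 3 nearest measured genes on each side, in chromosome order (horizontal axis, not to scale). Blue and red bars are called lower and higher, grey bars are not called. Around RAB3C, ACTBL2 (-1.60) and PLK2 (-0.74) are also lower, and no neighbour of the other 3 genes is called. Of the 24 neighbours, 6 are dim on all arrays.

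The profiles nearest to SCG3 and RAB3C, the 2 members with the largest fitted fold changes, were ranked by Euclidean distance, in log2 units, over the 6 arrays after each gene's own mean was subtracted. Nearest to SCG3 were CCN1 (0.259), CPA4 (0.456), GADD45B (0.523), ACTBL2 (0.541) and ID2 (0.567). CCN1 encodes a matricellular protein, CPA4 a carboxypeptidase and ID2 an inhibitor of basic helix-loop-helix factors. CCN1 gave 7.93, 8.24 and 8.03 against 6.68, 6.82 and 6.76, with replicate 2 the highest of the control-labelled arrays, as in SCG3. Nearest to RAB3C were ST8SIA4 (0.290), DDIT3 (0.302), FAT4 (0.302), COL12A1 (0.362) and GADD45B (0.367), so GADD45B, a stress-induced gene, was on both lists, and RAB3C held rank 10 in distance from SCG3 (0.596) while SCG3 held rank 51 from RAB3C. With 6 arrays under 2 labels, likeness here is mostly a like difference between the labels.

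Markers of cell identity were read beside these results. Of 9 measured genes that HEK293 cells are known for, all were above the dim level on some array. IRS4 (0.71), NEFM (0.77) and NEFL (0.40) were called higher and VIM (-0.28) lower under the HEK-BAHD1 label, with IRS4 opposite to the study's X-linked list. NEFM read 4.21, 4.57 and 4.69 on the control-labelled arrays, near the dim level of 4.63, so the size of its difference is uncertain. The other 5 were not called, among them KRT18 and KRT8 (-0.12 each) on the lower side and PAX2 (0.16) on the higher. The mean of the 9 was 8.60 to 8.66 on the control-labelled arrays and 8.77 to 8.81 on the others. NEFL and NEFM are also neuronal genes. Of the fibroblast markers 3 of 8 were dim on all arrays and COL3A1 was lower (-0.31), with list means of 4.52 to 4.55 and 4.46 to 4.50. Of the leukocyte markers 4 of 6 were dim, among them PTPRC, and CD68 was lower (-0.65), with list means of 4.57 to 4.78 and 4.48 to 4.58. Of the endothelial markers 4 of 5 were dim and none was called by limma, with 0 lower and 0 higher at p under 0.05 before adjustment, with list means of 3.95 to 4.05 and 4.06 to 4.09. Their part in the differences of the granin and RAB3 genes was not tested.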

How the data were processed

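The deposited values are log2 signals that the authors made per probe set with RMA (version not given in the sources used here) from 6 Affymetrix human gene arrays. The deposited series has another number than the paper gives for its arrays, and was taken as the same experiment because lines and replicates match. Groups follow the sample labels. Gene identifiers gave current symbols (GRCh38). Where a gene had several probe sets of its own, the one with the highest mean stood for it.

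The 21062 probe sets naming a gene were tested with limma 3.58.1 in R 4.3.3 with Benjamini-Hochberg adjustment and no low-signal filter, after a check on simulated data. The LPE test named in the study's methods was rewritten from its description as an alternative. Differences of medians were compared with 0.2, the study's threshold. Tables and plots were made with Python 3.11.15, pandas 2.3.3 and matplotlib 3.10.9.

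The members, the gene lists and their tests were chosen with earlier results of these data known. Named genes were all members, BAHD1, up to 4 called genes per list and direction with the largest fold change, 9 others whatever their values, neighbours, markers and the 5 nearest profiles. DOC2B, TMOD2, the markers given with values and the genes with both RE1 parts were named after their values were seen. VAMP7, CARTPT and EHMT2 have 2 identical probe sets, counted as 1. Array number limits the precision.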

Additional observations from a re-analysis of the deposited data

How the results depend on the processing

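SCG3 and RAB3C kept call and direction in every alternative run on them, and BAHD1 in all 16 (-3.18 to -3.03). As the set was chosen with these same arrays in view, this describes dependence on the processing and is no test of the genes. No called gene of the set changed sign. Higher calls among the set fell from 2 to 1 under LPE, centring, an intensity trend with robust variance, repeated quantile normalization and the replicate block, and to 0 with all probe sets tested. Leaving out 1 array gave 0 to 2 (0 without HEK-BAHD1 replicate 2 and without HEK293-CT replicate 1, 2 or 3, and 1 without HEK-BAHD1 replicate 3). Arrays of the same replicate number hardly deviated together from their label means (correlations of deviations -0.077, 0.074 and -0.038). These values do not settle whether the cultures were paired in handling. With a replicate block, 829 probe sets were called lower and 962 higher. Leaving out 1 array gave 581 to 937 lower and 806 to 938 higher, fewest without HEK293-CT replicate 3.

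Of the related lists (lower and higher calls as in the report), LPE gave 2 other RABs higher, 0 vesicle membrane proteins lower and 0 peptide hormones higher. With all probe sets tested there were 1 granin relative higher, 1 other RAB lower, 0 vesicle membrane proteins lower and 2 higher, and 0 hormones higher. Array weights gave 2 other RABs higher. Centring gave 0 granin relatives and 0 hormones higher and 1 REST-list gene lower, as did an adjusted p alone for the last. The trend gave 2 other RABs and 0 hormones higher. Quantile normalization gave 1 other RAB lower, 2 higher and 1 fusion gene higher. The block gave 0 granin relatives higher, 1 RAB3 regulator lower, 1 other RAB lower and 0 higher, 3 fusion genes lower, 0 vesicle membrane proteins lower and 2 higher, and 0 hormones higher. Without the dimmest 30% there were 2 other RABs and 1 fusion gene higher, and with the dimmer probe set of each gene 1 fusion gene higher. Leaving out 1 array gave, for granin relatives, 0 higher throughout, for RAB3 regulators 1 to 3 lower, for other RABs 1 lower and 0 to 1 higher, for fusion genes 2 to 3 lower and 0 to 1 higher, for vesicle membrane proteins 0 to 1 lower and 1 to 3 higher, for hormones 0 to 1 higher and for transcription factors 1 to 3 higher. The cause of these changes was not tested.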
